A study of Bos taurus with 40 samples.

Results

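The genes described here encode the albumin family and other carrier proteins of the blood plasma. They were chosen by symbol, and all 8 of them, ALB, AFP, GC, TF, AMBP, AHSG, FETUB and VTN, were found among the 13570 genes of the count tables. Each of the 8 had reads in liver and was among the 13148 genes tested.

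The samples came from 10 Korean cattle, 5 cows (female) and 5 bulls (male) raised at an experimental station and slaughtered after 22 months of age. Liver, abdominal fat, longissimus dorsi muscle (a back muscle) and pituitary gland were taken from every animal, which gave 40 RNA-seq libraries, 5 per sex and tissue. The study asked which genes differ between the sexes in these tissues. Animals are numbered 1 to 5 within each sex. Each library holds the RNA of a whole piece of tissue, so fewer cells of a type and less RNA per cell cannot be told apart in any comparison below.

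Hepatocytes secrete most of the protein of the plasma. Albumin holds water in the vessels and carries fatty acids, hormones and drugs, alpha-fetoprotein takes much of this role before birth and its gene is silenced in the liver afterwards, and the vitamin D binding protein encoded by GC belongs to the same family. Transferrin, from TF, carries iron to cells that bear its receptors. AMBP encodes a precursor that is cut into alpha-1-microglobulin, a heme and radical scavenger, and bikunin, a protease inhibitor that is linked to the inter-alpha-trypsin inhibitor heavy chains. The fetuins encoded by AHSG and FETUB belong to the cystatin superfamily, and fetuin A (AHSG) keeps calcium phosphate in solution. Vitronectin, from VTN, binds integrins of the cell surface.

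In the RefSeq annotation of the current cattle assembly, ALB, AFP and the related AFM lie next to each other on chromosome 6, in this order. GC lies on the same chromosome, between SLC4A4 and NPFFR2. FETUB and AHSG are direct neighbors on chromosome 1, with HRG, which encodes another cystatin superfamily protein, on the other side of FETUB. TF is also on chromosome 1, between RAB6B and INHCA, AMBP is on chromosome 8 and VTN on chromosome 19.

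Between 5173092 and 19165864 reads per library were counted on genes (median 10005607). The defining markers matched the tissue labels: 19 of 19 hepatocyte markers were highest in liver, 6 of 6 adipocyte markers in fat, 10 of 10 skeletal muscle markers in muscle and 9 of 9 pituitary hormone cell markers in pituitary. A list of 9 oligodendrocyte and pituicyte markers did not single out the pituitary, with 4 highest there, 3 in muscle and 2 in fat. The liver library labelled bull 3 went against its label, because it had no read of USP9Y, DDX3Y or ZFY (genes of the Y chromosome) and XIST at the level of the cow livers. Of the 45 pairs of livers it was most like that of cow 4 (Pearson r = 0.993), with counts that differed by 4.87 times the sampling noise where the next closest pair of livers differed by 10.2 times. The fat, muscle and pituitary of bull 3 had USP9Y at 34.1, 55.8 and 56.7 CPM and XIST at 0.153 to 0.264 CPM. In these sex genes the liver labelled bull 3 thus differed from the other tissues of bull 3. Which animal it came from was not tested. The fat library of bull 5 stood apart from the other bulls, with USP9Y at 1.78 CPM against 28.1 to 34.1 CPM and with the highest summed skeletal muscle markers of the 10 fat libraries, 1480 CPM against 119 to 480 CPM. The tests and relative levels that rest on these libraries are given with and without them where they change. Levels are TMM-scaled CPM, the reads of a gene relative to the normalized size of its library. They compare a gene between samples but not 1 gene with another, because transcript lengths were not used here.

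The 8 genes took 9.62% to 15.1% of the reads counted on genes in the livers (median 12%). In fat the share was 0.00433% to 0.233%, in muscle 0.000503% to 0.0104% and in pituitary 0.00464% to 0.00803%. ALB alone took 6.53% to 12% of the reads of a liver. The member genes therefore made up a large part of the liver libraries and a very small part of all others.

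ALB was highest in liver at 117192 ± 36197 CPM (SD, n = 10). In cows 1 to 5 the liver level was 71709, 71784, 146544, 116150 and 178132 CPM, and in bulls 1 to 5 it was 98892, 85080, 156847, 129299 and 117485 CPM. The 10 livers spanned a 2.48-fold range and the sexes overlapped. Outside liver, the mean was 36 ± 33.4 CPM in fat, 38.5 ± 23.3 CPM in muscle and 16.9 ± 4.17 CPM in pituitary. The lowest, median and highest values were 8.97, 23.5 and 105 CPM in fat, 3.44, 38.7 and 83.4 CPM in muscle and 11, 15.6 and 22.4 CPM in pituitary, so these tissues overlapped.

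AFP, the fetal member of the family, was barely detected. The 10 livers held 91 reads of it in all, against 3 reads in the fat libraries, 1 read in the muscle libraries and no read in the pituitary libraries. Its liver level was 0.923 ± 1 CPM (SD, n = 10). The reads were uneven: the livers of cow 1 and cow 2 held 37 and 25 reads, cow 3 held 8, and each of the 7 remaining livers held 2 to 4. By summed reads per summed library size, liver exceeded fat 49.7-fold (95% interval 16.5 to 245, counting error only) and muscle 77.1-fold (13.5 to 3079), and it was at least 55.1-fold higher than pituitary when 3 reads over the group were taken as the floor.

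GC, whose product carries vitamin D and its hydroxylated forms, was at 6252 ± 1681 CPM in liver (lowest 3607, median 6243, highest 8739, n = 10). Its mean was 1.67 CPM in fat, 2.01 CPM in muscle and 0.903 CPM in pituitary. No sample outside liver passed 4.56 CPM.

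TF, the iron carrier, was at 23293 ± 6441 CPM in liver (SD, n = 10; lowest 16712, highest 37521). In fat it was at 499 ± 568 CPM with a range of 24.3 to 1806 CPM. In pituitary it was 23.5 ± 6.04 CPM and in muscle 11.4 ± 8.71 CPM. TF thus stood in the order liver, fat, pituitary and muscle, in which only liver did not overlap with the next tissue.

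AMBP was at 6978 ± 2167 CPM in liver (SD, n = 10), and cow 5 stood highest at 12611 CPM against 5259 to 7894 CPM in the other livers. AHSG was at 1965 ± 744 CPM, and cow 5 was again highest at 3370 CPM against 860 to 2727 CPM. FETUB was at 152 ± 25.7 CPM with a range of 113 to 189 CPM. VTN was at 4561 ± 1278 CPM, from 2282 CPM in bull 2 to 6558 CPM in bull 4. Outside liver, the tissue means of AMBP lay between 0.826 and 2.76 CPM, those of AHSG between 0.691 and 0.757 CPM and those of VTN between 0.64 and 2.22 CPM. FETUB had 3 reads in the 10 fat libraries, 8 in muscle and 5 in pituitary.

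**Figure D1:**
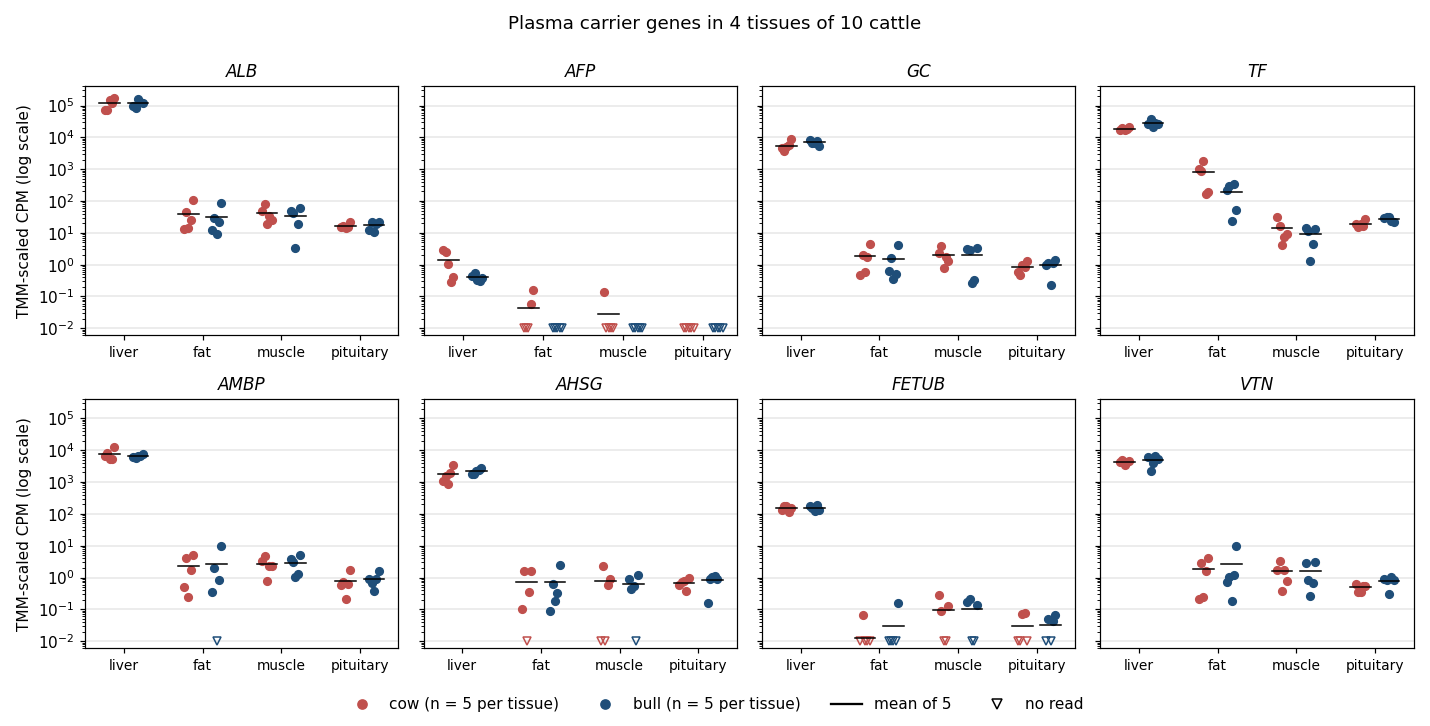
TMM-scaled CPM (log scale) of the 8 genes in every library, by tissue, with cows in red and bulls in blue (5 each per tissue), the mean of 5 as a bar and libraries without a read as open triangles at the bottom. All liver points lie above all points of the other tissues in each panel, and the TF panel shows fat at 24.3 to 1806 CPM, above most muscle and pituitary points.

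For each of the 8 genes, all 10 livers were above all 30 other samples, which was true of 5.78% of the genes tested. For AFP this rests on 2 or more reads per liver. The fat of cow 5 also held 2 AFP reads and fell below the livers only by library size (0.157 CPM against 0.281 CPM in the liver of cow 4, with 2 reads). In the model with sex and tissue over 40 samples (M2), all 8 were higher in liver than in fat, with an adjusted p under 0.05 in the edgeR likelihood ratio test (LRT), which 65.1% of all genes tested passed, 29.2% higher and 35.8% lower in liver. All 8 were also higher in liver than in muscle, where 62.8% of all genes passed, 28.4% higher and 34.4% lower in liver. All 8 were higher in liver than in pituitary, where 65.4% of all genes passed, 29.7% higher and 35.6% lower in liver. The median log2 fold change of the 8 genes was 11.40 against fat, 11.34 against muscle and 12.27 against pituitary, beside medians over all genes of -0.13, -0.11 and -0.12.

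Against fat, ALB had a log2 fold change of 11.68 (SE 0.37, adjusted p = 6.41e-90) and FETUB, with 3 reads in fat, had a fitted value of 12.20 (SE 0.85). TF had 5.71 (SE 0.44, adjusted p = 1.20e-24). GC, AMBP, AHSG and VTN lay between 11.02 and 11.85. AFP had a fitted value of 4.92. The fitted values of AFP and FETUB depend on the prior count because so few of their reads were seen outside liver. By summed reads, FETUB was 7255-fold higher in liver than in fat (95% interval 2482 to 35182, counting error only), 1408-fold higher than in muscle (714 to 3262) and 4831-fold higher than in pituitary (2070 to 14881). Against muscle, TF was at 11.07 (SE 0.44), near the 11.29 to 11.58 of ALB, GC, AMBP, AHSG and VTN. Against pituitary, TF was at 9.95 (SE 0.44) and AHSG at 11.31 (SE 0.47), while ALB, GC, AMBP and VTN lay between 12.73 and 13.03. Without the liver labelled bull 3 and the fat of bull 5, all 8 stayed higher in liver in the 3 comparisons.

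The level outside liver was then expressed as a percentage of the level in the liver labelled with the same animal. For bull 3 this liver went against its label, so the values without it are also given. In fat, the median over 10 animals was 0.02% for ALB, 0.0184% for GC, 0.0224% for AMBP, 0.0163% for AHSG and 0.0273% for VTN. For TF it was 0.888%, with a range of 0.114% to 10.8%. Without bull 3 the median was 0.898% (0.196% to 10.8%), and without bull 3 and bull 5 it was 1.05% (0.804% to 10.8%), with ALB at 0.02% (0.00973% to 0.0617%) in the same 8 animals. The other medians in fat, without bull 3, were 0.025% for GC, 0.0319% for AMBP, 0.0184% for AHSG and 0.0366% for VTN. In muscle the median of TF, 0.0415%, was close to that of ALB, 0.0401%. In pituitary it was 0.101% for TF (0.079% to 0.143%) and 0.0136% for ALB (0.00701% to 0.0257%), and the ranges of these genes did not overlap. Without bull 3 these medians were 0.0418% for TF and 0.0503% for ALB in muscle, and 0.0935% and 0.0142% in pituitary.

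The 19 hepatocyte markers, among them fibrinogen and complement genes, give the scale of this measure. The middle one of their 19 medians was 0.0302% in fat, 0.035% in muscle and 0.0166% in pituitary. In fat, 15 of 19 were under 0.1%, and the highest was the apolipoprotein gene APOA1 at 19.4%. The medians of ALB, GC, AMBP, AHSG, VTN and TF in fat, muscle and pituitary were all within the range of these markers. For TF in fat (0.888%) this rests on APOA1 alone, since the next marker was C3 at 0.507%. APOA1 had a mean of only 167 CPM in liver, and in fat it ranged from 8.5% to 260% of liver. In pituitary, where 13 of 19 were under 0.1%, F2 (0.206%), C3 (0.25%), SERPINA1 (0.35%) and APOA1 (3.89%) were among those above TF (0.101%). Markers of other tissues were also counted outside their own. The summed pituitary hormone cell markers had medians of 81, 85.7 and 118 CPM in liver, fat and muscle, against 205003 CPM in pituitary. The summed skeletal muscle markers had 48.5, 227 and 82.2 CPM in liver, fat and pituitary, against 184586 CPM in muscle. Whether RNA of liver origin took part in the low levels outside liver was not tested.

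TF and ALB were compared within animals on this scale, a comparison chosen after the values were seen. The p-values below do not cover this choice of genes. In fat, TF exceeded ALB in 10 of 10 animals, by 5.65 ± 2.40 on the log2 scale (mean and SD, exact two-sided sign-flip permutation p = 0.00195, the smallest that 10 animals allow, adjusted over 3 tissues 0.00293). In pituitary it exceeded ALB in 10 of 10 animals, by 2.79 ± 0.81 (exact permutation p = 0.00195, adjusted 0.00293). In muscle the mean difference was 0.49 ± 0.83 and TF was above ALB in 8 of 10 animals (exact permutation p = 0.0977). Without bull 3, the difference was 5.79 in fat and 2.61 in pituitary (exact permutation p = 0.00391 for both), and without bull 3 and bull 5 it was 6.34 and 2.67 (exact permutation p = 0.00781 for both).

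**Figure D2:**
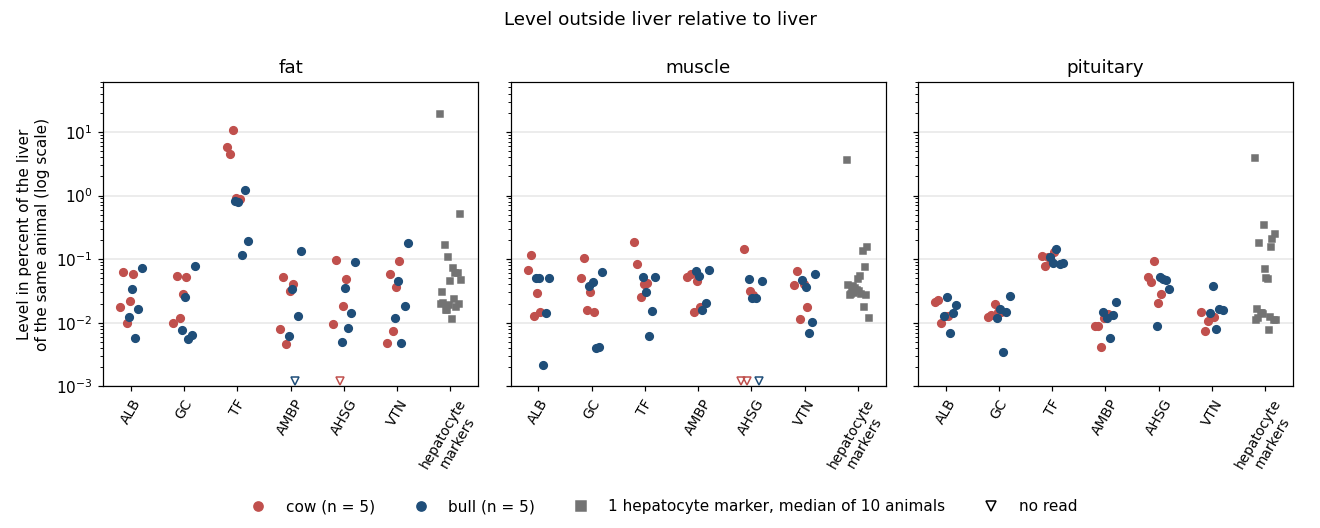
Level in fat, muscle and pituitary in percent of the level in the liver labelled with the same animal (log scale) for 6 genes, with 1 point per animal (cows red, bulls blue), libraries without a read as open triangles, and the medians of 19 hepatocyte markers as grey squares. The TF points lie at 0.114% to 10.8% in fat and 0.079% to 0.143% in pituitary, above all ALB points of the same tissue, and they overlap with the ALB points in muscle.

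The ratio of reads shows the same in another form. In liver, 0.114 to 0.441 TF reads were counted per ALB read (median 0.219). The median was 0.251 in muscle, 1.28 in pituitary and 13 in fat, where it ranged from 0.593 in bull 5 to 127 in cow 3. Without bull 3 the median was 15.4 in fat and 1.27 in pituitary, and without bull 3 and bull 5 it was 17 (1.79 to 127) and 1.28. The ratio of GC to ALB reads had medians of 0.0504, 0.0438, 0.0512 and 0.0575 in liver, fat, muscle and pituitary, and that of VTN to ALB reads had medians of 0.0415, 0.0475, 0.037 and 0.037. AHSG had 0.0183 reads per ALB read in liver and 0.0422 in pituitary at the median, with overlapping ranges.

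Fat, muscle and pituitary were also compared with each other. Between fat and muscle, 2 of 8 members passed the threshold (60.4% of all genes did, 33.3% higher and 27.1% lower in fat). These were TF, with a log2 fold change of 5.37 (SE 0.44, adjusted p = 8.10e-23) to the side of fat, and FETUB, with -1.90 (SE 0.99, adjusted p = 0.0194), which had 3 and 8 reads in these tissues. FETUB missed the threshold without cow 1 (-1.51, adjusted p = 0.094) and without bull 2 (-1.57, adjusted p = 0.083). The other 6 members lay between -0.29 and 0.45. All TF values in fat except that of bull 3, 24.3 CPM, were above the highest muscle value of 31.9 CPM.

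Pituitary was lower than fat for 5 of 8 members (65.6% of all genes passed, 33.3% higher and 32.3% lower in pituitary). The quasi-likelihood test called 4 of 8, without GC (adjusted p = 0.057). The 5 were TF at -4.25 (SE 0.44), VTN at -1.77 (SE 0.47), AMBP at -1.57 (SE 0.48), ALB at -1.08 (SE 0.37) and GC at -0.88 (SE 0.39, adjusted p = 0.0384). Without the liver of bull 3 and the fat of bull 5, 2 of 8 passed. ALB then had -0.77 (adjusted p = 0.0513), AMBP -0.92 (0.0572) and GC -0.60 (0.164), while TF and VTN still passed. Without bull 5, VTN was at -1.09 and AMBP at -1.07. GC missed the threshold when cow 2, cow 4, cow 5, bull 2 or bull 5 was left out (adjusted p = 0.0562 to 0.131), and with the animal as a block (-0.65, adjusted p = 0.108).

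Against muscle, pituitary was higher for TF, at 1.12 (SE 0.44, adjusted p = 0.0213), and lower for VTN at -1.33, AMBP at -1.74, ALB at -1.18, GC at -1.17 and FETUB at -1.50 (adjusted p = 0.0486, on 5 and 8 reads). This makes 6 of 8 members, where 64.9% of all genes passed, 33% higher and 32% lower in pituitary. TF missed the threshold without bull 3 (0.89, adjusted p = 0.0504) and without bull 4 (1.01, adjusted p = 0.0611). VTN missed it without cow 2 (-1.05, adjusted p = 0.0629). FETUB missed it when any of cow 1, cow 2, cow 5, bull 1, bull 2, bull 3 or bull 5 was left out (adjusted p = 0.0568 to 0.177) and with the animal as a block (-1.48, adjusted p = 0.0523). When libraries were scaled by their size alone, the median of all genes moved from 0.03 to 0.89 and TF was the only member past the threshold. The lower values of ALB, GC, AMBP and VTN in pituitary are relative to that scaling.

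The 14 other plasma carriers found in the tables were all highest in liver, and all 14 passed the threshold to the side of liver in each of the 3 comparisons. HP, whose haptoglobin binds free hemoglobin, was at 14792 ± 10998 CPM in liver, HPX (hemopexin, a heme carrier) at 8141 ± 2867 CPM and APOH at 6534 ± 1447 CPM. These 3 took the most reads of the list, a count that also rises with transcript length. RBP4, the carrier of retinol, and CP, the copper protein ceruloplasmin, were picked out after their values were seen. RBP4 in fat stood at a median of 25.1% of liver (9.33% to 90.4%, median 28% without bull 3), and CP in pituitary at 1.23% (0.805% to 3.22%, median 1.33% without bull 3). RBP4 in fat and CP in pituitary were above the middle hepatocyte marker of those tissues, as was TF. CP was not the highest of the list in pituitary, where SHBG was at 7.39% and RBP4 at 3.71%. SHBG, at 54.8 ± 15.2 CPM in liver, also stood at 7.23% in fat and 3.82% in muscle.

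Of 25 genes listed as partners, receptors and handlers of these proteins, 22 were in the tables and 14 were highest in liver. For iron, TFR2, the second transferrin receptor and an iron sensor of hepatocytes, was at 160 ± 37.6 CPM in liver and had means of 3.53 CPM or less elsewhere. HAMP, which encodes the iron hormone hepcidin, was at 921 ± 737 CPM in liver and had means of 0.436 CPM or less elsewhere. TFRC, the receptor that takes transferrin into most cells, was highest in muscle at 453 ± 147 CPM against 106 ± 67.1 CPM in liver (liver against muscle log2 fold change -2.10, adjusted p = 2.38e-06), 31.1 ± 10.2 CPM in pituitary and 10.7 ± 12.4 CPM in fat. The tissue with the most TF outside liver, fat, therefore had the lowest mean of TFRC.

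Of the heavy chain genes of the inter-alpha-trypsin inhibitor family, ITIH1, ITIH2 and ITIH3 were almost confined to liver, as AMBP was. ITIH4 also had a mean of 104 ± 109 CPM in muscle (33.1 to 400 CPM) and 30.7 ± 14.6 CPM in fat. ITIH1, ITIH2, ITIH3 and ITIH4 were at 4079, 2725, 1165 and 6129 CPM in liver, and 97.7% to 99.9% of their summed tissue means lay there. FTH1, a ferritin chain gene that with ITIH4 and ITIH1 took the most reads of this list in liver (2886 ± 1579 CPM), had 42% of its summed means there.

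Of the receptor genes listed for vitronectin, ITGB3 was highest in liver, at 58.9 ± 13.5 CPM. PLAUR, the urokinase receptor, was highest in fat at 23.8 ± 21.1 CPM (log2 fold change of liver against fat -3.31), and the integrin chain gene ITGB5 also, at 227 ± 66 CPM (-1.38). ITGAV, the integrin chain that pairs with both beta chains, was at 71 ± 32.7 CPM in muscle and 69.1 ± 30.2 CPM in liver (log2 fold change of liver against muscle -0.02).

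For vitamin D, the 25-hydroxylase genes CYP2R1 and CYP27A1 were highest in liver, at 13.5 ± 3.54 and 441 ± 176 CPM. VDR, the vitamin D receptor, was highest in pituitary at 17.4 ± 9.01 CPM against 0.484 ± 0.364 CPM in liver (log2 fold change of liver against pituitary -5.13, adjusted p = 1.89e-38). CYP27B1 and CYP24A1, which encode the activating and the inactivating hydroxylase, had at most 2.06 CPM and 0.0888 CPM in a tissue mean and passed no comparison of liver with another tissue. CUBN, part of the kidney receptor that takes up GC and albumin, was at 2.32 CPM in fat and lower elsewhere (liver against fat -2.57). FCGRT, the receptor that returns albumin to the blood, was highest in liver at 199 ± 78 CPM and reached 136 ± 67.1 CPM in fat. MEP1B, a meprin protease chain (fetuin B inhibits related proteases), was at 77.2 ± 45.3 CPM in liver and had means of 0.546 CPM or less elsewhere.

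Of 16 genes listed as regulators of the albumin family genes, 12 were in the tables and 10 were highest in liver. HNF4A (950 ± 325 CPM), PROX1 (218 ± 53 CPM) and NR1H4 (126 ± 46.4 CPM) took the most reads of the list there. HNF4A stood at 27 ± 10.8 CPM in fat, against 0.883 CPM in muscle and 0.131 CPM in pituitary. The means of TF in fat, muscle and pituitary were 499, 11.4 and 23.5 CPM, and any relation to HNF4A was not tested. CEBPA was highest in fat at 103 ± 32.9 CPM against 41.8 ± 15.4 CPM in liver (liver against fat -1.28, adjusted p = 4.39e-07). ZHX2, known as a repressor of AFP after birth in mouse liver, was highest in muscle at 150 ± 36.5 CPM and was at 25.8 ± 7.08 CPM in liver (liver against muscle -2.52). The count of regulators higher in liver was 9 of 12 against fat, 11 against muscle and 10 against pituitary.

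**Figure D3:**
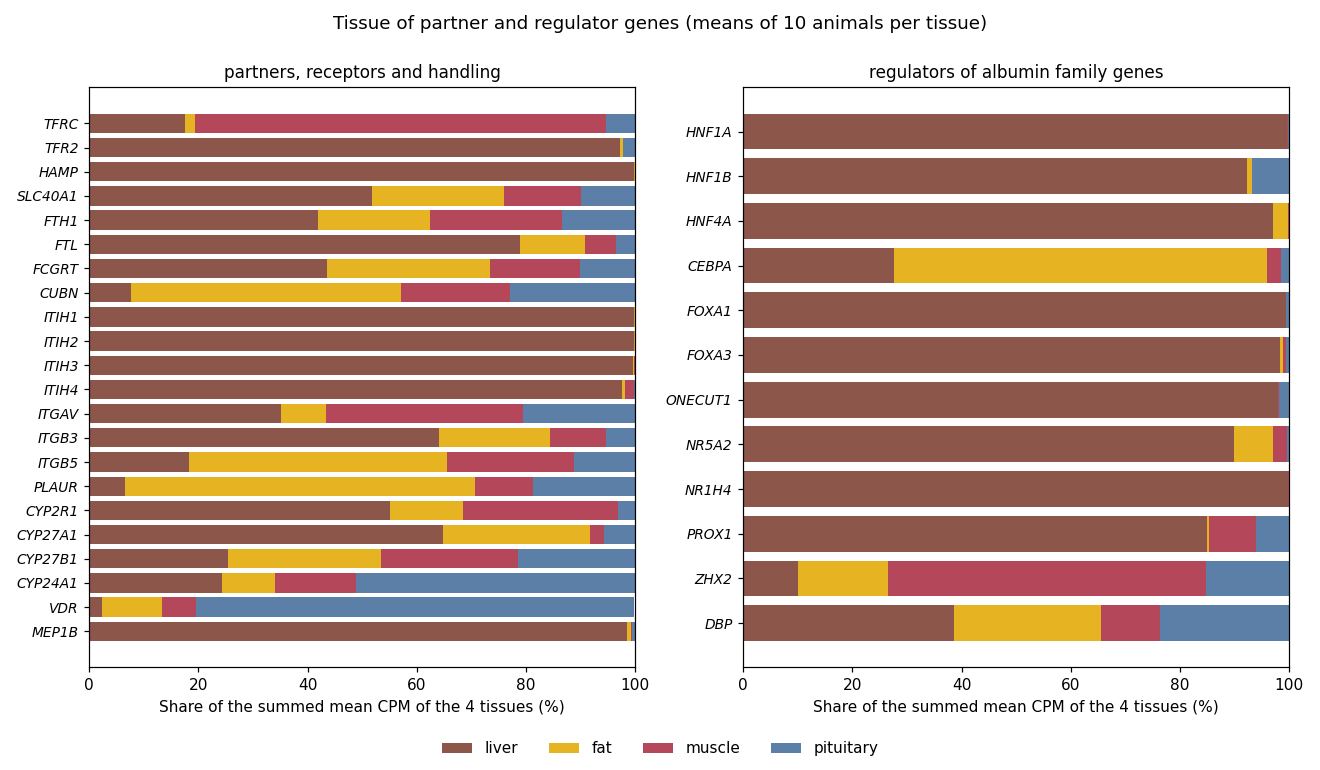
Stacked bars of the share (%) of each gene's summed mean CPM of the 4 tissues that each tissue holds, for 22 partner, receptor and handling genes on the left and 12 regulators on the right (means of 10 animals per tissue). The inter-alpha-trypsin inhibitor genes have 97.7% (ITIH4) to 99.9% in liver, while TFRC has 75.4% in muscle, PLAUR 64.3% in fat and VDR 80.4% in pituitary.

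Sex differences were tested within each tissue (M1) and over all tissues (M2), as log2 fold change of bulls to cows. Of the 8 members, 0 passed the edgeR LRT at an adjusted p under 0.05 in each tissue, where 0.745% of all genes passed in pituitary, 0.517% in muscle, 0.175% in liver and 0.114% in fat. The quasi-likelihood test and DESeq2 also called 0 of 8 in each tissue. DESeq2 gave no adjusted p for AFP and FETUB in fat, muscle and pituitary, so there it did not judge these genes. At an unadjusted p under 0.05 the LRT found 2 members for liver (AFP and TF), 1 for fat and 1 for pituitary (TF in both) and 0 for muscle, where the cut was met by 7.45% of all genes in liver, 6.88% in fat, 9.27% in pituitary and 11% in muscle. In M2, 0 of 8 passed by the 3 tests (1.69% of all genes by the LRT) and 1 had an unadjusted p under 0.05 by the LRT (AFP; 16.7% of all genes). The 5 cows and the 5 bulls overlapped for every member in every tissue. Of all genes, 0.548% did not overlap in liver, 1.34% in pituitary, 1.65% in muscle and 1.29% in fat. Without the liver of bull 3, 0 of 8 passed in liver (0.464% of all genes) and 0 of 8 in M2.

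The liver was nearly even between the sexes for ALB, at 116864 ± 46654 CPM in cows and 117521 ± 27770 CPM in bulls (SD, n = 5 each, log2 fold change 0.01, SE 0.34). GC had 0.34 (SE 0.32), AHSG 0.30 (SE 0.37), VTN 0.21 (SE 0.31), FETUB 0.08 (SE 0.26) and AMBP -0.20 (SE 0.32). The standard errors of 0.26 to 0.37 set how small a difference could be detected in these livers.

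TF in liver was 17280, 19751, 16712, 17927 and 21410 CPM in cows 1 to 5 and 27047, 37521, 21304, 27765 and 26210 CPM in bulls 1 to 5. Only the liver labelled bull 3 fell within the range of the cows. The log2 fold change was 0.61 (SE 0.28, adjusted p = 0.563 by edgeR LRT). Without bull 3 the means were 18616 ± 1935 CPM (n = 5) and 29635 ± 5295 CPM (n = 4), the sexes did not overlap (true of 1.33% of genes without this library), and the log2 fold change was 0.69 (adjusted p = 0.522).

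TF in fat went the other way. It was 1006, 896, 1806, 161 and 188 CPM in cows 1 to 5 and 222, 302, 24.3, 333 and 51.3 CPM in bulls 1 to 5. Cows 1, 2 and 3 were above all bulls, while cows 4 and 5 were within the range of the bulls. The log2 fold change was -2.13 (SE 0.73, adjusted p = 0.435 by edgeR LRT, and 0.813 by the quasi-likelihood test), and without the fat of bull 5 it was -1.89 (adjusted p = 0.479). Beside these values, the summed hepatocyte markers of the fat libraries were 486, 766, 435, 143 and 418 CPM in the cows and 279, 278, 203, 271 and 781 CPM in the bulls, and the adipocyte markers were at 7876 to 14726 CPM in the cows and at 11786 to 26899 CPM in the bulls. Their part in the TF values was not tested.

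In pituitary, TF was 19.4, 15.6, 18.3, 16.8 and 27.4 CPM in cows 1 to 5 and 29.3, 32.3, 30.5, 23.5 and 22.4 CPM in bulls 1 to 5, so that cow 5 alone overlapped with the bulls. The log2 fold change was 0.50 (SE 0.22, adjusted p = 0.401 by edgeR LRT). In muscle, TF was 31.9, 16.5, 4.19, 7.39 and 8.94 CPM in the cows and 14.1, 11.5, 1.32, 4.31 and 13.5 CPM in the bulls, which overlapped, and the log2 fold change was -0.64 (SE 0.59). Whether the sex difference of TF varied among the 4 tissues was tested with the interaction of sex and tissue, in which 0 of 8 members passed by the 3 tests (0.335% of all genes did by the LRT) and 1, TF, had an unadjusted p under 0.05 (8.58% of all genes). TF had an adjusted p = 0.151 by the edgeR LRT, and it passed without cow 4 (0.0438) or without cow 5 (0.0442), whose fat libraries were the lowest of the cows.

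**Figure D4:**
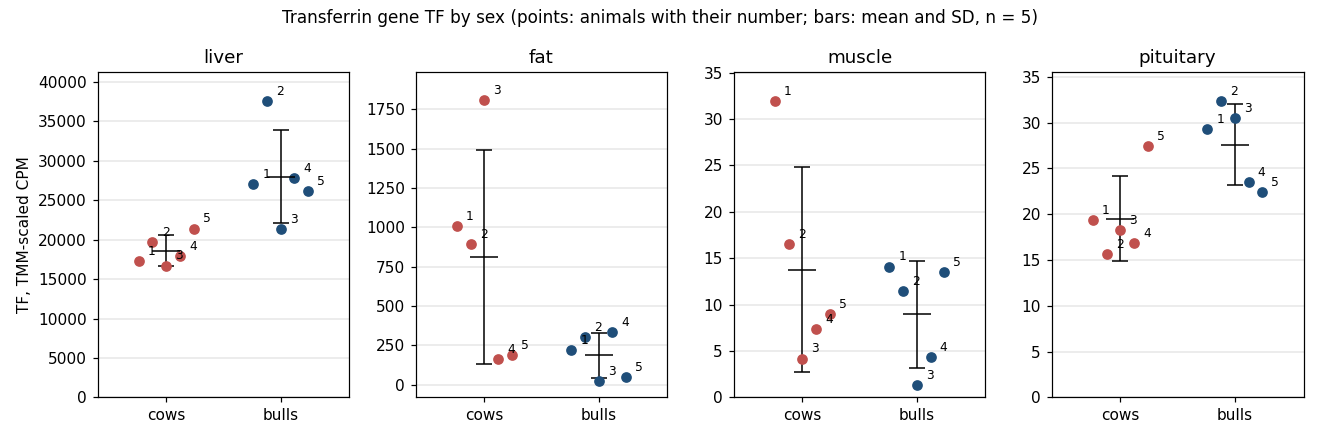
TF in TMM-scaled CPM in the 5 cows and 5 bulls of each tissue, each on its own linear axis, with animals numbered and with the mean and SD as bars. In liver the bulls except number 3 lie above all cows, and in fat cows 1, 2 and 3 (896 to 1806 CPM) lie above all bulls.

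AFP in liver had 37, 25, 8, 2 and 3 reads in cows 1 to 5 and 3, 3, 2, 4 and 4 reads in bulls 1 to 5, that is 1.45 ± 1.25 CPM against 0.396 ± 0.0919 CPM (SD, n = 5 each). The excess of the cows rests on cows 1, 2 and 3, since cows 4 and 5 were within or below the bulls. The log2 fold change was -1.85 (SE 0.68, adjusted p = 0.319 by edgeR LRT), and -1.82 without bull 3 (adjusted p = 0.441). It passed in 1 of 10 fits that leave out 1 liver, that without cow 4 (-2.11, adjusted p = 0.0464). Over all tissues in M2 it was -1.79 (adjusted p = 0.062 by edgeR LRT), and with the animal as a block in voom it was -0.39 (adjusted p = 0.688). In M2 it passed in 2 of 10 fits that leave out 1 animal (lowest adjusted p = 0.0135 by edgeR LRT) and with library sizes alone. The paper names AFP among the genes called in its own M2 fit, while AFP was not called in the M2 fit here.

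**Figure D5:**
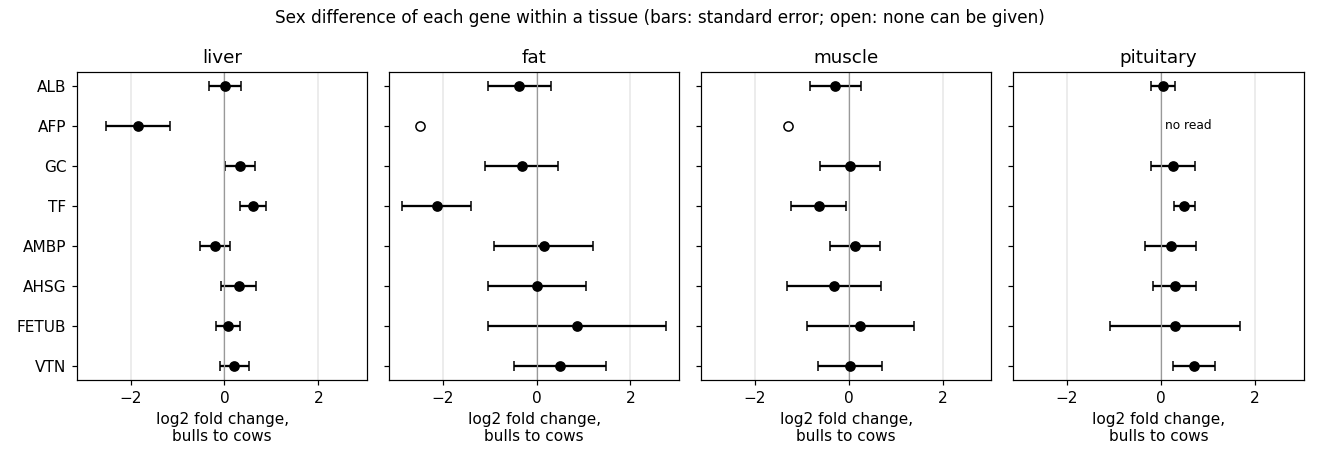
Log2 fold change of bulls to cows (horizontal axis) with its standard error for the 8 genes in each tissue, with open circles where a sex had no read and no standard error can be given. In the TF row, liver (0.61) and pituitary (0.50) lie to the side of bulls, fat (-2.13) and muscle (-0.64) to the side of cows, and ALB lies within 1 standard error of 0 in each tissue.

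Among the carrier, partner and regulator lists, DBP, a clock-controlled factor named for its binding to the albumin promoter, was the only gene past the threshold in a sex comparison. It was lower in bulls in M2 (-1.31, SE 0.30, adjusted p = 0.00861 by edgeR LRT). DESeq2 and the quasi-likelihood test gave adjusted p = 0.0065 and 0.0422. Liver means were 105 ± 90.5 CPM in cows and 21.2 ± 14.5 CPM in bulls (SD, n = 5 each). The call was lost without cow 1, cow 2, bull 1, bull 2, bull 3 or bull 4 (-1.27 to -0.97, adjusted p = 0.0516 to 0.109) and with the animal as a block (-0.98, adjusted p = 0.388), and it held without the liver of bull 3 alone (-1.24, adjusted p = 0.0173). DBP is 1 of 12 regulators tested, while 0 of 14 other carriers and 0 of 22 partners passed in M1, in M2 or in the interaction by the same test. At an unadjusted p under 0.05 in M2 these lists had 2 of 12, 0 of 14 and 5 of 22 genes, beside 16.7% of all genes. Among the markers used to check the tissues, 5 genes passed the LRT in a sex comparison. The muscle genes MYH7 and MYH2 and the hormone subunit gene CGA were higher in the pituitary of bulls (1.18, 2.34 and 1.84, adjusted p = 0.00837, 0.0101 and 0.0125), and in M2 CGA was higher (1.20, adjusted p = 0.0432) and the T cell gene CD3E lower in bulls (-1.10, adjusted p = 0.0197). The muscle gene TNNT3 passed in the interaction (adjusted p = 0.0427). The quasi-likelihood test called 0 of these 5 (adjusted p = 0.0585 to 0.364), and their part in the values of the 8 genes was not tested.

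From liver to liver, the coefficient of variation was 30.9% for ALB, 26.9% for GC, 27.7% for TF, 31.1% for AMBP, 37.9% for AHSG, 28% for VTN and 17% for FETUB. The 1739 genes with a mean of at least 100 CPM in liver had a median of 30.3%, with quartiles at 22.9% and 40.4%, so that FETUB alone lay outside the quartiles, below them. AFP had 108% on very few reads. Without the liver labelled bull 3, FETUB was at 15.8%, AHSG at 40.4% and the quartiles were 22.9% and 40.6%.

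Over the 40 samples, the genes with the pattern most like each member were taken from 10939 genes by Pearson r of log2(CPM + 1), which reflects mainly the contrast of liver and the other tissues. For ALB they were APOH (0.998), PLG (0.997) and FGB (0.997), and for GC they were APOH, C9 and PLG (0.998 each). AMBP was most like APOH, PLG and APOA2, and VTN most like HPX, APOH and APOA2. AHSG was most like SERPINA3-7, MGC137014 and SAO, and FETUB most like OTC, AFM and HAO1. TF had lower values, with SORD (0.963), DHRS7 (0.962) and LOC518623 (0.961) as the most similar. AFP was most like the sterol transporter genes ABCG8 (0.947) and ABCG5 (0.926) and like ALOX15B (0.924). These values of AFP rest on few reads, 91 in the 10 livers, of which cows 1 and 2 held 37 and 25.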

How the data were processed

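RNA was sequenced from 4 tissues of 10 cattle. Per the paper's methods and the submitters' processing notes, the authors cleaned the read pairs (Trimmomatic), mapped them to bosTau7 by TopHat2 and Bowtie2 and counted unique alignments on UCSC genes with HTSeq. They deposited raw read counts per gene, 1 table per sample. Counting mode and strandedness are not given in the sources used here. A row without a gene name (0.114% to 2.69% of reads) was left out. Depth limits low levels: 3 reads were taken as the floor, and intervals cover counting error only.

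Groups came from the labels, and animals from the ear tags in the sample titles. The members and gene lists were chosen with earlier results of these data known. Negative binomial models were fitted in edgeR 4.0.16 (R 4.3.3) with TMM factors, estimateDisp and LRT, over 13148 genes with at least 1 read, with Benjamini-Hochberg adjustment, a threshold of 0.05 and a prior count of 0.125. M1 had sex per tissue, M2 sex and tissue, and a further model their interaction. Tissue contrasts came from M2. On simulated data, the LRT recovered 68.2% of 4-fold and 8.04% of 2-fold changes in M1 (fat) and 99.7% and 81.9% in M2, and 20.4%, 9.02%, 16.1% and 8.6% of its calls in M1, M2, the interaction and the tissue contrasts were unchanged genes, against 4.03% to 4.96% for the quasi-likelihood test. Alternatives were the quasi-likelihood test, DESeq2 1.42.0 (sex only), RLE factors, library sizes alone, filterByExpr, leaving out each animal or the doubted libraries, and the animal as a block (limma 3.58.1 voom for M2, a fixed term elsewhere). The animal pairs the tissues: deviations from group means had a mean correlation of 0.169 over 60 pairs from the same animal and -0.0421 over 240 pairs of other animals of the same sex. The simulated counts held no such pairing, so their shares for M2, the interaction and the tissue contrasts do not cover it. All members were named, and of each list those past the threshold in a sex comparison, the 3 with the highest CPM in liver and those past the threshold that were highest elsewhere. For the marker lists, which served as checks, tissue results were given as counts. Other list genes were named after their values were seen. Chromosomes and neighbors came from RefSeq on ARS-UCD2.0, whose coordinates were not used because the build differs. Figures were drawn with matplotlib 3.10.9. 1 further gene, left out of the lists, is not reported here.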

Additional observations from a re-analysis of the deposited data

Results flagged for a closer look

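In each group of 5 samples of 1 sex and tissue, the highest and lowest level of every member was compared with its nearest neighbor by Dixon's criterion at 95%. Of 52 groups with at least 4 reads in the highest sample, 7 held a sample far from the others. Chance flags about 1 in 20 groups of normal values, and over all genes with as many reads 10.2% of groups held such a sample.

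In 4 of the 7, the sample was the fat of bull 5, the library that stood apart. In the fat of the bulls 23.3% of all genes held a sample far from the others, against 7.27% to 8.99% in the other groups, and values of 1 library are not independent. There ALB was at 86.6 CPM with the next bull at 28.7 CPM, AMBP at 9.97 CPM with the next at 1.94 CPM, AHSG at 2.47 CPM with the next at 0.609 CPM, and VTN at 9.89 CPM with the next at 1.18 CPM. TF in the same library was 51.3 CPM, the second lowest of the bulls. The summed hepatocyte markers there were 781 CPM, the highest of the 10 fat libraries, against 203 to 279 CPM in the other bulls. Their part in these values was not tested.

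In pituitary, ALB of cow 5 was 22.4 CPM with the next cow at 16.1 CPM, AHSG of bull 1 was 0.162 CPM with the next bull at 0.908 CPM, and VTN of bull 3 was 0.305 CPM with the next bull at 0.848 CPM. No sum of markers was set beside these 3 values.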

How the results depend on the processing

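All 8 members stayed higher in liver than in fat, muscle and pituitary under every alternative run, in 381 comparisons of a member with its value as reported. The count of members past the threshold moved in the weaker contrasts. The quasi-likelihood test called 4 in place of 5 in pituitary against fat. With library sizes alone it was 1 (AFP, adjusted p = 0.0292) in place of 0 in M2 and 1 in place of 6 in pituitary against muscle. Without the liver of bull 3 and the fat of bull 5 it was 2 in place of 5 in pituitary against fat. Leaving out 1 animal at a time, the count ranged from 0 to 1 for M1 in liver, M2 and the interaction (AFP and TF), and from 1 to 2 for fat against muscle (FETUB missed the threshold without cow 1 or bull 2). GC in pituitary against fat missed it in 5 of 10 such fits, and FETUB in pituitary against muscle in 7 of 10. The cause was not tested. With the animal as a replicate block, the counts were 0 in M2 and in the interaction, 2 in fat against muscle, 4 in pituitary against fat (GC lost, adjusted p = 0.108) and 5 in pituitary against muscle (FETUB lost, 0.0523). The block changed no other call of a member. DESeq2 was not run for tissue contrasts. Of the single values, members and named partner or regulator genes together, 41 lost their call under an alternative (7 of them for DBP in M2), 7 gained one and 0 reversed. Of 767 values not past the threshold, 92 had another sign under an alternative. By Spearman's rho, 10 of the 24 most similar genes were the same.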

Other observations

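TF in fat, both as a level and as a percentage of liver, was highest in cows 1, 2 and 3, at 5.82%, 4.54% and 10.8% of liver. Apart from bull 3, whose liver went against its label, it was lowest in bull 5 at 0.196%. The same 3 cows held the 3 highest AFP read counts in liver (37, 25 and 8 reads). Both patterns were noticed in the data, and their relation was not tested. The livers of cows 1 and 2 differed from those of cows 4 and 5 in their counts by 33.3 to 58.7 times the sampling noise. From each other they differed by 10.2 times, while cow 3 was nearer to bull 2 (14.8) than to cow 1 (18.6). The part of these differences between livers in both patterns was not tested.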
